A study of Mus musculus with 34 samples.

Results

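The epididymal fat of HF4 mice was set against that of HF1 mice on 2 two-colour arrays of experiment 2, the direct arrays of this pair, out of 34 arrays in the series (22 in experiment 2). HF4 mice were the young of HF3 mice and ate a high fat diet. HF1 mice were the young of HF0 mice, whose own parents (STD) had eaten a normal diet, and HF1 mice ate the high fat diet too. Both groups thus shared diet and tissue and differed in how many generations of the line had eaten the diet before them. The comparison asks what distinguished the fat of a late generation from that of an early one under the same feeding. Total RNA was extracted with Qiagen reagents and labelled with Ambion reagents, per the labels. The labels used here give no strain, age or number of animals per extract.

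On one array HF4 RNA carried Cy5 and HF1 RNA carried Cy3, and on the other the dyes were swapped. Where a gene's values on both arrays are given, the array with HF4 in Cy5 comes first. Nothing says that the arrays hold different extracts, so they were counted as 1 pair of extracts and no test was made. A value is the mean of both log2 ratios, each turned so that HF4 stands over HF1, and ± gives the SE over the 2 arrays, which measures technical spread alone. The sources used here do not say which dye stood on top of the deposited ratio. The values are coded as Cy5 over Cy3. With Cy5 on top a positive value means more RNA in HF4 than in HF1, and with Cy3 on top it means less. Positive and negative are therefore relative directions throughout, and no value was turned into a fold. A feature, meaning a gene or a probe with no single gene symbol, was called where its mean was at least 1 in size and both arrays had the same sign.

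Epididymal fat is a white depot that lies against the epididymis and testis. Its adipocytes store triglyceride made from fatty acids that are released at the capillary wall and taken up through CD36, or made anew from carbohydrate, and they share the tissue with endothelium, macrophages and matrix-forming fibroblasts. The testis makes sperm by meiosis followed by a long remodelling of the spermatid. In that remodelling histones give way to transition proteins and then protamines, the acrosome forms over the nucleus, and a flagellum with outer dense fibres and a fibrous sheath is built. Genes used in these steps are mostly silent in other tissues, which makes them sensitive markers of male germ cell RNA.

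Of 22879 features, 1116 were called positive (4.88%) and 593 negative (2.59%), which makes 1709 in all (7.47%). The excess of positive calls depended on the arrays used. The array with HF4 in Cy3 alone gave 1389 positive and 1484 negative features past 1, and the array with HF4 in Cy5 alone 1539 positive and 599 negative. The means reached farther on the positive side. On it, 455 features stood at 2 or more and 190 at 3 or more, whereas 17 of the negative features stood at -2 or less and 1 of them, Cd36, at -3 or less. The largest value was 5.76 and the lowest -3.11, while the median over all features was 0.00. Over all features 58.3% had the same sign on both arrays, the median SE over the arrays was 0.19, and 35 features with a mean of at least 1 in size had arrays of opposite sign and were not called. The call had no natural break at its limit. Adh4 (0.76 and 1.24) stood just inside it on the positive side and Atl1 (0.94 and 1.06) just outside, and Colec10 (-1.24 and -0.76) just inside on the negative side and Ifi205 (-1.07 and -0.93) just outside.

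**Figure D1:**
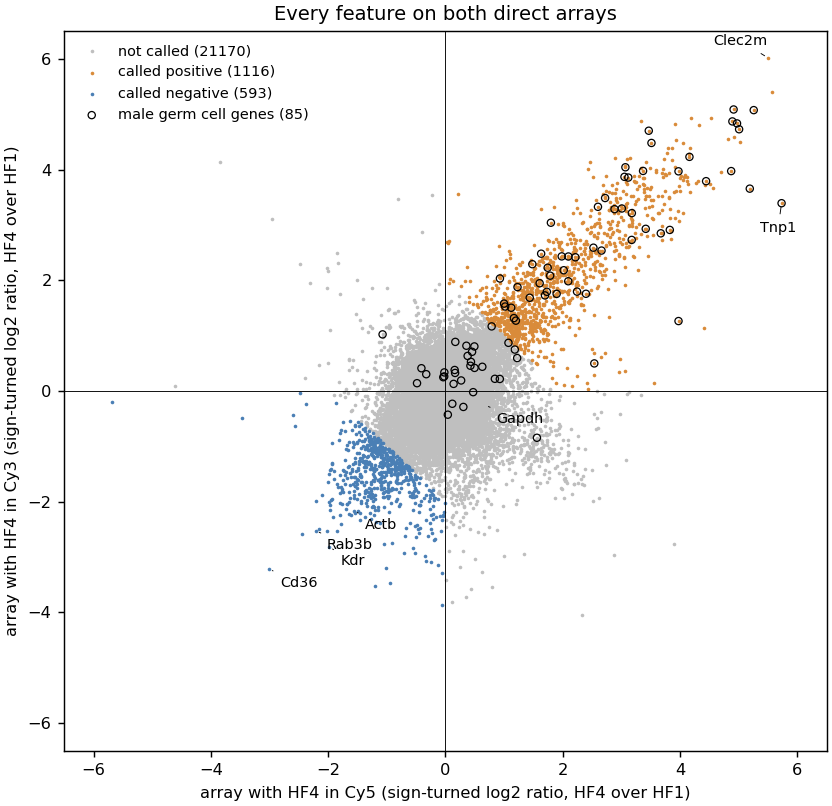
Each point is 1 of 22879 features, with its sign-turned log2 ratio (HF4 over HF1) on the array with HF4 in Cy5 along the x axis and on the array with HF4 in Cy3 along the y axis; orange marks the 1116 called positive, blue the 593 called negative, and rings the 85 measured male germ cell genes. The positive calls run along the diagonal up to Clec2m at 5.50 and 6.02, and the lowest mean on the negative side is that of Cd36 at -3.01 and -3.22.

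Of the 12 most positive genes, 6 are members of the male germ cell lists (Tnp2, Adam3, Mael, Meig1, Ropn1l and Tnp1). RefSeq windows before the gene start (GRCm38.p6) were searched for short motifs to see what else the called genes had in common, and those of 2 of the 12 most positive genes are shown because they hold GTTGCC, an arm of the X-box motif of RFX-type factors, close to the start. Of these 12 genes, 9 had a window in the table. Each window runs 250 bases up to the base before the start, 5′ to 3′ on the gene's strand, and capitals mark the X-box arm on either strand (GTTGCC or its reverse complement). Pdcl2 lies on chr5:76331157-76331406 and Ropn1l on chr15:31453690-31453939, both on the minus strand.
Pdcl2: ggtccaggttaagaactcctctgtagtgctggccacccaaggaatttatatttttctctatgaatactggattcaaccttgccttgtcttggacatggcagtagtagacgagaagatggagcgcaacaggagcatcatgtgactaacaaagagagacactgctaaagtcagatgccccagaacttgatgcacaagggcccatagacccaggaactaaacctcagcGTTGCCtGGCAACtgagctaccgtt
Ropn1l: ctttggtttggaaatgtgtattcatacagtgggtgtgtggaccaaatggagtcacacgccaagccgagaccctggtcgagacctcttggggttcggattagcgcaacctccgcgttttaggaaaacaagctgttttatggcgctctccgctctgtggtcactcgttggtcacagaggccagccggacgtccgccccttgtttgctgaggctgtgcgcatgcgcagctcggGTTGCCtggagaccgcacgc
In Pdcl2 the arm and its reverse complement stand 1 base apart and begin 25 and 18 bases before the start, and in Ropn1l the single copy begins 20 bases before it. Motifs were counted by gene, and a gene counted where any of its windows held the letters, so genes with several windows had more chances. The X-box arm, searched on both strands, was in 143 of 784 genes called positive (18.2%), in 43 of 392 called negative (11%) and in 12.0% of all 14738 named genes with a window. The CRE (TGACGTCA) was in 2.55% of the genes called positive, 2.04% of those called negative and 2.40% of all. The GC box (GGGCGG) was in 35.5% of the genes called positive, 62.8% of those called negative and 50.4% of all, and TATAAA was in 11.7%, 12.5% and 12.1% of the same sets. Over 32851 windows counted singly, on the arrays or not, the X-box arm was in 10.4% and the GC box in 32.7%. A match describes the letters of the window and says nothing about binding.

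Pdcl2, a phosducin-like gene expressed in germ cells, stood at 5.57 and 5.40 on the arrays (5.49 ± 0.09). Ropn1l, which encodes a ropporin-like protein of the sperm fibrous sheath, stood at 5.01 and 4.73 (4.87 ± 0.14). Clec2m, a member of the C-type lectin family and the most positive gene of all, stood at 5.50 and 6.02 (5.76 ± 0.26). In each of these genes both arrays stood far above 0 and close to each other. Dnajb3, a co-chaperone gene of the testis, was at 4.76 ± 0.27, Shcbp1l, which acts on the meiotic spindle, at 4.76 ± 0.17, and Nlrp14, expressed in testis and oocytes, at 4.68 ± 0.13. The clone-named gene 4930408G06Rik stood at 4.52 and 4.93 (4.73 ± 0.20).

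**Figure D2:**
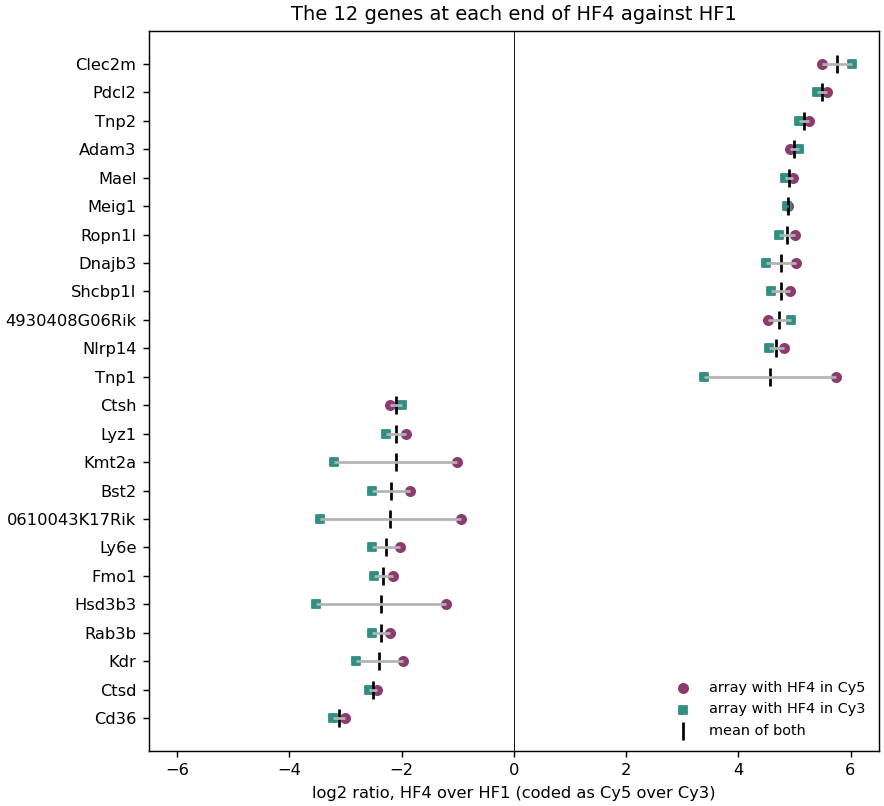
The 12 most positive genes (top) and the 12 most negative (bottom) are shown with the log2 ratio of HF4 over HF1 on the x axis, circles for the array with HF4 in Cy5, squares for the array with HF4 in Cy3 and bars for their mean. The arrays lie close together for most genes and far apart for Tnp1 (5.73 and 3.39), Hsd3b3 (-1.20 and -3.53), Kmt2a (-1.01 and -3.20) and 0610043K17Rik (-0.94 and -3.46).

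The germ cell markers were sorted into the stages of sperm formation. Of 85 measured members, 54 were called positive (63.5%, against 4.88% of all features) and 0 negative, and their median was 1.78. These and the other gene lists were written with earlier results of these data known, so the shares called describe the lists and test nothing. As the arrays measured whole tissue, a change in the number of cells of a type and a change in RNA per cell cannot be told apart. Genes of sperm chromatin stood farthest out, with 9 of 12 called and a median of 2.79. Tnp2, a transition protein gene, was at 5.26 and 5.07 (5.17 ± 0.09). Its partner Tnp1 was at 5.73 and 3.39 (4.56 ± 1.17), so that its arrays differed more than those of any other of the 12 most positive genes. Arrays lay farther apart still for Prm2 of the same list, called at 3.97 and 1.26 (2.62 ± 1.36) and named after its values were seen. Prm1, which encodes the protamine that packs sperm DNA, was at 5.19 and 3.66 (4.42 ± 0.77). H1f7, a linker histone gene of the spermatid, was at 4.16 and 4.23 (4.20 ± 0.03). The 3 members not called were Chd5, a chromatin remodeller (-0.17), Brdt, a bromodomain protein gene (0.23), and H1f6, the testis linker histone gene (0.25).

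Genes of meiosis and of the piRNA pathway, which silences transposons in the germ line, had 14 of 24 members called positive and a median of 1.5. Mael, a piRNA pathway gene, stood at 4.97 and 4.83 (4.90 ± 0.07). Meig1, needed for sperm formation, stood at 4.89 and 4.87 (4.88 ± 0.01). Ldhc, the germ cell form of lactate dehydrogenase, was at 4.45 and 3.79 (4.12 ± 0.33), and Ddx25, an RNA helicase gene of spermatids, at 3.47 and 4.70 (4.09 ± 0.62). The 10 members not called ran from -0.06 (Sycp2) to 0.97 (Pgk2, a glycolysis gene of late germ cells). Genes of meiosis stood on both sides of the limit. Dmc1, a recombinase gene, was at 0.16 without a call, while Spo11, which cuts DNA to start recombination, was called at 2.26, and Sycp1 and Sycp3, of the synaptonemal complex, at 2.04 and 2.21, all 4 named after their values were seen.

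The acrosome and sperm surface list had 18 of 25 members called positive, a median of 1.78 and no member with a negative mean. Adam3, a sperm surface gene needed for passage into the oviduct, stood at 4.91 and 5.09 (5.0 ± 0.09). Crisp2, a secretory protein gene of sperm, was at 4.87 and 3.97 (4.42 ± 0.45). Adam2, which encodes fertilin beta, was at 3.51 and 4.48 (4.0 ± 0.48), and Spaca1, an acrosomal membrane gene, at 3.37 and 3.98 (3.67 ± 0.30). The flagellum list was the lowest of these, with 13 of 24 called and a median of 1.27. Odf2, an outer dense fibre gene, stood at 3.97 on both arrays, Akap3, a fibrous sheath gene, at 3.83 and 2.91 (3.37 ± 0.46), and Catsper2, a subunit of the sperm calcium channel, at 2.60 and 3.33 (2.96 ± 0.36).

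Gene families were also counted by the stem of their symbol, with stems chosen after the values were seen, so the counts are a description beside the 4.88% positive and 2.59% negative of all features. Of 24 Spata genes (named for spermatogenesis) 13 were called positive, of 32 Tex genes (named for testis expression) 15, and of 21 Cfap genes (cilia and flagella) 9, with 0 called negative in each. Of 6 Tssk genes 3 were called positive and 0 negative, and of 6 Catsper genes also 3 and 0. The Dnah, Adam and Ccdc stems, which hold sperm genes too, had smaller shares. Of 13 Dnah genes (axonemal dyneins) 1 was called positive and 0 negative, of 28 Adam genes 8 positive and 2 negative, and of 112 Ccdc genes 19 positive and 2 negative. Of 1718 genes named as RIKEN clones, 219 were called positive and 16 negative. Of 737 olfactory receptor genes 3 were called positive and 11 negative, and of 78 Rpl or Rps ribosomal protein genes 1 was called each way.

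List medians for other cells of the male tract lay nearer 0. The Sertoli cell list had a median of 0.07, with 2 of 14 members called positive, Cldn11, a tight junction gene, at 1.51 and 1.39 (1.45 ± 0.06) and Tsx at 0.70 and 1.40 (1.05 ± 0.35). The Leydig cell list had a median of 0.41, with 2 of 8 called positive. These were Star, which brings cholesterol into mitochondria (0.86 and 1.49, 1.18 ± 0.32), and Cyp17a1, an androgen synthesis gene (1.60 and 0.72, 1.16 ± 0.44). Of all features, 4.88% were called positive. In HF4 over HF0 and HF1 over HF0, Star stood at 0.13 and -0.78 and Cldn11 at 0.40 and -0.82. In the same pairs Cyp17a1 stood at 1.42 and -0.31 and Tsx at 0.83 and -0.31. The germ cell genes had medians of 2.19 and -0.03 there. The cell source of the Sertoli and Leydig list calls was not tested. The epididymis epithelium list had a median of 0.06 over 21 genes. Of these, Bsph2, which encodes a sperm-binding protein, was at 1.63 ± 0.33 and Wfdc15b at 1.34 ± 0.30, while Spink12, a protease inhibitor gene, was called negative at -1.08 ± 0.14. A median near 0 in this pair does not show that such RNA was missing from both groups. The list median was 0.50 in HF4 over HF0 and 0.12 in HF1 over HF0. Spink12 stood at 2.09 and 2.26 in these pairs, against -0.54 and -0.17 for Ly6g5b of the same list, both picked after their values were seen. Of 10 seminal vesicle and prostate genes 0 were called (median 0.03), with Svs6 at the middle of the list at 0.06. Log ratios do not show whether a marker was above background, so the tissue label could not be checked by level.

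HF4 and HF1 RNA also met other groups of experiment 2, again as dye swaps. Those pairs can share extracts with the direct arrays, so their values are given side by side. Shared calls alone were counted, further below with the processing, and they are no independent check. Over the 85 germ cell genes the median was 2.19 in HF4 over HF0, 0.49 in HF4 over HF3 and 1.74 in HF4 over HF4-REV, the group with the same parents on the normal diet. It was -0.03 in HF1 over HF0, -1.14 in HF1 over HF3 and 0.17 in HF1 over HF1-REV. Tnp2, for example, stood at 5.35 in HF4 over HF0, 1.60 in HF4 over HF3 and 5.31 in HF4 over HF4-REV, against 0.30 in HF1 over HF0, -2.80 in HF1 over HF3 and 1.72 in HF1 over HF1-REV. The median thus lay near 0 between HF1 and HF0, below 0 between HF1 and HF3, and above 0 between HF4 and each of the other groups, with HF3 the closest. Between HF1 and HF1-REV the median of 0.17 hid a wide range. Crisp2 stood at 3.71 and Prm1 at 2.09 there, against 0.36 for Ddx25 and -0.0009 for Catsper2, all 4 picked after their values were seen.

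**Figure D3:**
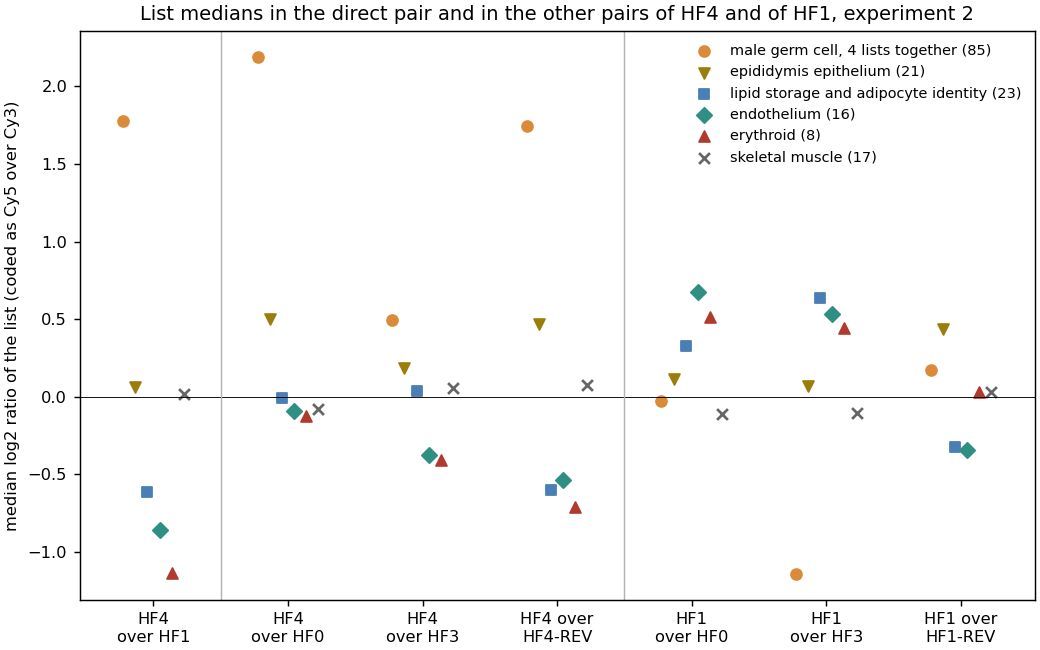
Points give the median log2 ratio (y axis, coded as Cy5 over Cy3) of 6 gene lists in HF4 over HF1, in 3 other pairs that hold HF4 and in 3 that hold HF1. The germ cell genes stand at 1.78 in HF4 over HF1 and at -0.03 in HF1 over HF0, while the endothelial and erythroid genes stand at -0.86 and -1.13 in HF4 over HF1 and near 0 in HF4 over HF0.

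The negative side held genes of fat, blood vessels and red cells. It was led by Cd36, which encodes the fatty acid transporter of adipocytes, capillaries and macrophages, at -3.01 and -3.22 (-3.11 ± 0.10). The list of lipid storage and adipocyte identity had 23 measured genes, of which 5 were called negative (21.7%, against 2.59% of all features) and 1 positive, and the median was -0.61. Car3, an abundant carbonic anhydrase of adipocytes, was at -1.33 and -1.96 (-1.65 ± 0.31). Retn, which encodes resistin, was at -1.08 and -1.77 (-1.42 ± 0.34), and Aqp7, the glycerol channel, at -0.95 and -1.78 (-1.37 ± 0.42). The other negative call was Plin4, a lipid droplet coat gene, at -1.01 ± 0.39. The positive call was Cebpa, a transcription factor of adipocyte differentiation, at 1.78 and 0.54 (1.16 ± 0.62). In the other pairs Cebpa lay closer together, at 0.14 in HF4 over HF0 and -0.28 in HF1 over HF0. Over HF3 it was at -0.35 in HF4 and -0.26 in HF1. The genes of 2 well-known secreted products of adipocytes had arrays of opposite sign, with Adipoq (adiponectin) at -0.66 and 0.16 and Lep (leptin) at -0.38 and 0.55. Pparg, the master regulator of adipocytes, was not called at -1.13 and -0.56 (-0.85 ± 0.29).

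Genes that make fatty acids were uneven. Of 22 measured, 3 were called negative (13.6%, against 2.59% of all features) and 0 positive, with a median of -0.26. Scd1, which encodes the stearoyl-CoA desaturase, was at -1.65 and -2.01 (-1.83 ± 0.18). Thrsp, the lipogenic factor Spot14, was at -1.55 and -1.56 (-1.55 ± 0.01), and Srebf1, the transcription factor of the pathway, at -0.89 and -1.17 (-1.03 ± 0.14). Fasn, which encodes fatty acid synthase itself, was at -0.47 and 0.41, so its arrays disagreed in sign and its mean was -0.03. Among 15 genes tied to the growth of fat mass, Mest, an imprinted gene of expanding fat, was at -1.69 and -1.47 (-1.58 ± 0.11) and Cav1, which encodes caveolin, at -1.20 ± 0.22. The median of that list was 0.02.

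Of 32 subunits of the respiratory chain and ATP synthase 4 were called negative (12.5%, against 2.59% of all features) and 0 positive. Their median was -0.38 in the direct pair but 0.04 by the route through HF0 (HF4 over HF0 minus HF1 over HF0). Ndufa4 was at -1.70 and -2.14 (-1.92 ± 0.22), and the others were Ndufs3 at -1.13 ± 0.37, Sdhc of the succinate dehydrogenase complex at -1.07 ± 0.13 and Cox8b, a cytochrome oxidase subunit, at -1.05 ± 0.32. Of 22 beta oxidation genes (median -0.23, and -0.07 through HF0) the enoyl-CoA isomerase gene Eci2 alone was called, at -1.07 ± 0.13. That is 4.55% of the list, against 2.59% of all features. Cpt1b, the muscle-type carnitine palmitoyltransferase, stood close to the limit on the other side at 0.96 ± 0.14, and Ucp1, the uncoupling protein of brown fat, was at 0.40 ± 0.25, but at -0.14 through HF0. Of 18 cholesterol synthesis genes 0 were called (median -0.27), with Cyp51 at the middle of the list at -0.27. Fmo1, a flavin monooxygenase gene, at -2.16 and -2.49 (-2.32 ± 0.17) and Cyp2e1 at -1.52 and -1.64 (-1.58 ± 0.06) were the 2 calls among 21 detoxification genes.

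Endothelium had 6 of 16 genes called negative (37.5%, against 2.59% of all features) and a median of -0.86. Kdr, which encodes the main VEGF receptor of blood vessels, was at -1.98 and -2.82 (-2.40 ± 0.42). Pecam1, an adhesion gene of endothelial junctions, was at -1.65 and -1.83 (-1.74 ± 0.09). Gpihbp1, which holds lipoprotein lipase at the capillary wall, was at -1.49 and -1.61 (-1.55 ± 0.06), and Cldn5, a tight junction gene, at -1.12 and -1.62 (-1.37 ± 0.25). Not every endothelial gene went with them, since Vwf (von Willebrand factor) was at -0.26 and Cdh5 (VE-cadherin) at 0.11, 2 genes named after their values were seen.

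Erythroid genes had 5 of 8 called negative (62.5%, against 2.59% of all features) and the lowest list median, -1.13. Alas2, which starts heme synthesis in red cells, was at -1.64 and -2.21 (-1.93 ± 0.29), and Bpgm, a red cell enzyme gene, at -1.21 and -1.33 (-1.27 ± 0.06). The other calls leaned on 1 array. Epb42, a red cell membrane gene, was at -2.38 and -0.24, and the globin gene Hbb-b1 at -0.44 and -2.05. Hba-a1 was at -0.01 and -2.03. The globin probes may also detect near-identical gene copies, so they are uncertain.

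Macrophage genes had a median of -0.22, with 2 of 25 called negative (8.0%, against 2.59% of all features). Both encode chains of complement C1q, C1qc at -1.24 and -2.09 (-1.66 ± 0.42) and C1qa at -1.31 and -1.89 (-1.60 ± 0.29). Adgre1, which encodes the macrophage marker F4/80, was at -0.63 and -0.40. Among 14 neutrophil granule genes (median -0.04) Mmp9 alone was called, at -1.05 ± 0.27. Among 9 B cell genes (median 0.11) Jchain alone was called, at -1.49 ± 0.42. Among 12 T cell genes (median -0.04) it was Ccr7, at 1.27 ± 0.04. Among 7 mast cell genes (median 0.53) it was Hdc, which makes histamine, at 1.29 ± 0.00. As 4.88% of all features were called positive and 2.59% negative, a single call does not stand for its list. The 12 most negative genes of all included 3 lysosomal or lysozyme genes. Ctsd, which encodes cathepsin D, was at -2.44 and -2.58 (-2.51 ± 0.07), Ctsh, cathepsin H, at -2.20 and -1.99 (-2.10 ± 0.11), and Lyz1, lysozyme, at -1.92 and -2.29 (-2.10 ± 0.18).

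The interferon response list had a median of -0.49 and 3 of 18 members called negative (16.7%, against 2.59% of all features). Bst2, which encodes tetherin, was at -1.85 and -2.53 (-2.19 ± 0.34), Iigp1, an immunity GTPase gene, at -1.63 ± 0.08 and Oas1a, an oligoadenylate synthetase gene, at -1.44 ± 0.39. Ly6e, another interferon-inducible gene, was at -2.02 and -2.54 (-2.28 ± 0.26). The inflammatory mediators were mixed (median 0.04). Ptgs2, which encodes the inducible cyclooxygenase, was called positive at 1.63 and 1.78 (1.71 ± 0.08), against Cxcl12, Ccl4 and Orm1 called negative at -1.19 ± 0.12, -1.08 ± 0.18 and -1.07 ± 0.02. Tnf stood at -0.24 ± 0.23, Ccl2 at -0.19 ± 0.97 and Il6 at 0.81 ± 0.20, all 3 without a call.

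Of 30 extracellular matrix genes 3 were called negative (10.0%, against 2.59% of all features) and 0 positive (median -0.33). Lum, the proteoglycan lumican, was at -1.71 and -1.52 (-1.62 ± 0.10), Col1a1, the main fibrillar collagen chain, at -0.84 and -1.63 (-1.24 ± 0.39) and Col6a2 at -0.45 and -2.06 (-1.26 ± 0.80). Of 10 mesothelium genes only the keratin genes Krt18 and Krt8 were called, both positive, at 1.5 ± 0.15 and 1.29 ± 0.60. Skeletal muscle genes centred on 0.02 with 0 of 17 called, and Mylpf at the middle of the list stood at 0.03 and 0.01.

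Immediate early and heat shock genes differed between the arrays as a list. Their median was 0.35 on the array with HF4 in Cy5 and -0.69 on the other, and 5 of 25 were called negative. Klf6, at -1.33 and -1.29 (-1.31 ± 0.02), and Klf2, at -1.0 and -1.90 (-1.45 ± 0.45), were negative on both, as was the heat shock gene Hspa1b (-1.17 ± 0.25). Zfp36, an mRNA decay factor gene, was at -0.26 and -1.93. Among 15 hypoxia and glycolysis genes, Hk2 (hexokinase) was called positive at 1.34 ± 0.26 and Adm (adrenomedullin) negative at -1.02 ± 0.08. Of 15 clock genes, Per1 was called negative at -1.12 ± 0.10.

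**Figure D4:**
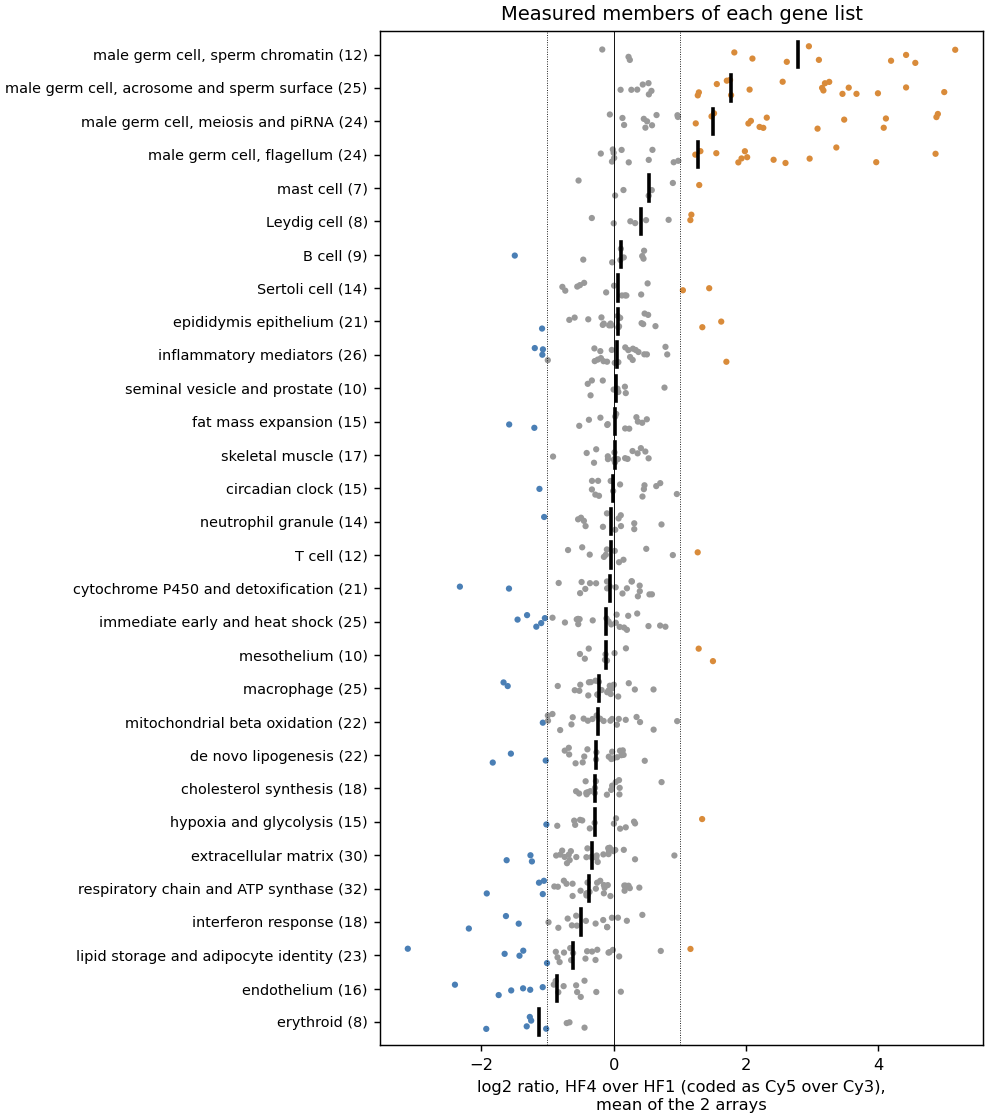
Each dot is a measured gene, placed by its mean log2 ratio of HF4 over HF1 (x axis), with 1 row for each of the 30 lists (number of measured genes in brackets) ordered by median; orange and blue mark genes called positive and negative, and black bars the medians. The 4 germ cell lists stand at the top with medians from 1.27 to 2.79, and endothelium (-0.86) and erythroid genes (-1.13) at the bottom.

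The negative calls looked unlike the positive ones in the other pairs. Over the 593 features called negative the median was -0.13 in HF4 over HF0, -0.90 in HF4 over HF3 and -1.27 in HF4 over HF4-REV, against 0.83 in HF1 over HF0, 0.23 in HF1 over HF3 and -0.06 in HF1 over HF1-REV. Cd36 was at -0.46, -2.19 and -3.05 in the pairs of HF4, and at 2.75, 0.89 and -0.60 in those of HF1, in the same order. Kdr was at -0.22, -1.55 and -2.12 in the pairs of HF4, and at 1.77, 0.74 and -0.62 in those of HF1. On the negative side HF4 thus lay near HF0, and HF1 lay nearer HF3 and HF1-REV than HF0. The germ cell genes stood at 1.78 in the same direct pair, and their part in the negative values was not tested. Over the 1116 features called positive the medians were 2.03, 0.78 and 1.72 in the pairs of HF4, against -0.03, -1.01 and 0.12 in those of HF1.

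Not all positive calls were germ cell genes. Has2, which encodes a hyaluronan synthase, was at 1.48 and 2.11 (1.79 ± 0.32) in HF4 over HF1, 0.24 in HF4 over HF0 and -1.31 in HF1 over HF0. It was also at 0.10 in HF4 over HF3, 2.36 in HF4 over HF4-REV, -1.46 in HF1 over HF3 and 0.66 in HF1 over HF1-REV. Hilpda, a lipid droplet gene induced by hypoxia, was at 1.75 and 1.21 (1.48 ± 0.27), with 0.20, 0.54 and 1.66 in HF4 over HF0, HF3 and HF4-REV, against -1.51, -0.93 and 0.05 in HF1 over HF0, HF3 and HF1-REV. Il1r2, the decoy receptor for interleukin-1, was at 1.42 and 1.24 (1.33 ± 0.09), with 0.11, -0.01 and 1.0 in the pairs of HF4, against -0.80, -1.20 and -0.04 in those of HF1, in the same order. These 3 genes were chosen after their values were seen.

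A housekeeping gene lay with the negative calls. Actb, which encodes cytoplasmic actin and is spotted 305 times, averaged -1.56 and -2.17 on the direct arrays (-1.86 ± 0.30), with an SD over spots of 0.29 and 0.27, and was itself called. It averaged -0.27 in HF4 over HF0, -1.56 in HF4 over HF3 and -2.09 in HF4 over HF4-REV, against 1.65 in HF1 over HF0, 0.40 in HF1 over HF3 and -0.07 in HF1 over HF1-REV. Gapdh, a glycolysis gene spotted 257 times, averaged 0.68 and -0.26 on the direct arrays, and its arrays disagreed in sign. In the 6 other pairs it lay between -0.33 and 0.03. Other housekeeping genes, with 1 probe each and picked after their values were seen, were not called. Hprt stood at 0.01 ± 0.06, Rplp0 at 0.46 ± 0.09 and Ppia at -0.08 ± 0.88. Whether the negative calls and Actb have a common source was not tested. Of the 11 olfactory receptor genes called negative, Olfr887 at -1.83 and Olfr152 at -1.82, both named after their values were seen, stood near the value of Actb, while the median over all 737 was 0.06.

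**Figure D5:**
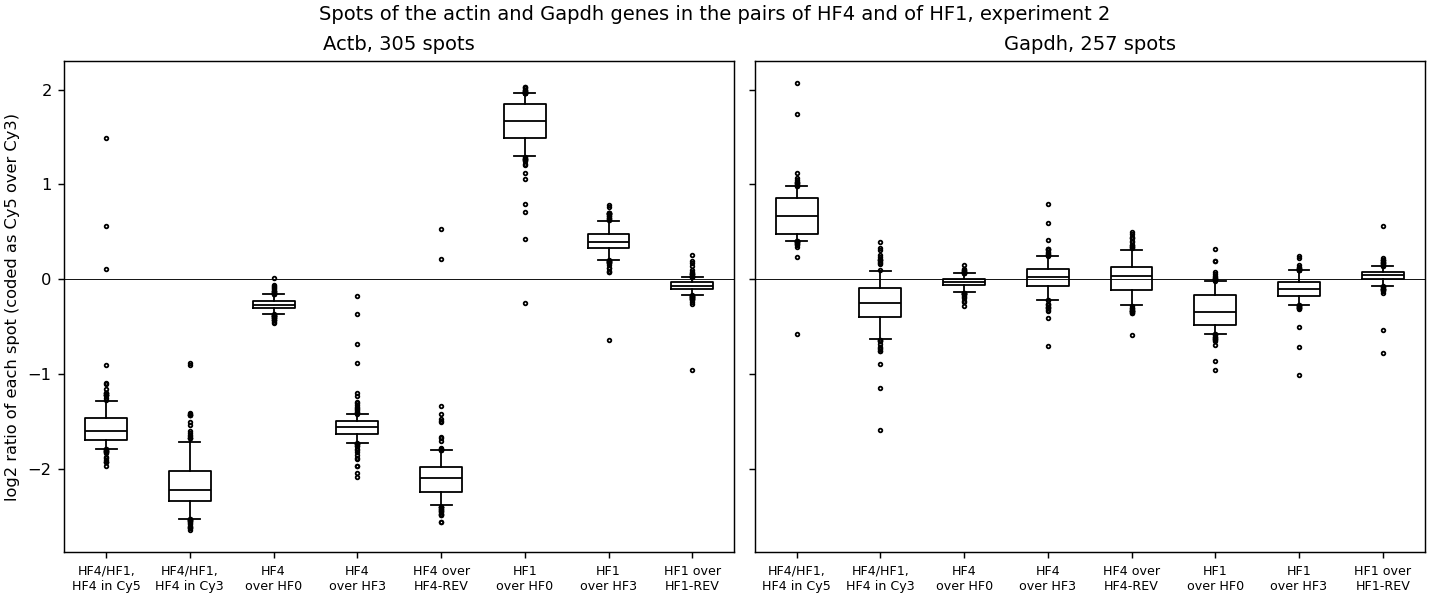
Boxes show the log2 ratio (y axis, coded as Cy5 over Cy3) of every spot of Actb (left) and Gapdh (right), with the median, the quartiles, whiskers at the 5th and 95th percentiles and the remaining spots as points. The 305 Actb spots lie near -1.61 and -2.22 on the direct arrays, near -0.27 in HF4 over HF0 and near 1.67 in HF1 over HF0, and the 257 Gapdh spots lie near 0.67 and -0.25 on the direct arrays.

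Among the 12 most negative genes, 4 rested on less than the others. Rab3b, a vesicle traffic gene, was at -2.21 and -2.53 on the direct arrays (-2.37 ± 0.16), yet at -0.02 in HF4 over HF0 and -0.02 in HF1 over HF0. Hsd3b3, a steroid dehydrogenase gene, was at -1.20 and -3.53 (-2.37 ± 1.16), Kmt2a, a histone methyltransferase gene, at -1.01 and -3.20 (-2.11 ± 1.10), and 0610043K17Rik at -0.94 and -3.46 (-2.20 ± 1.26). For these 3 the array with HF4 in Cy3 supplied most of the mean. On the positive side Akap4, a fibrous sheath gene, had 1.48 and 2.29 on the direct arrays but 0.25 in HF4 over HF0 and 0.10 in HF1 over HF0. In all, 29 features called positive and 63 called negative had 1 array under 0.5 in size.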

How the data were processed

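Two-colour arrays of mouse epididymal fat were used as the authors deposited them, as 1 log2 ratio per probe and array (25344 probes, 0 missing values). Base 2 is an assumption, since the sources used here do not state the base: base 10 would put the values beyond 16-bit intensities, and a natural log cannot be told apart. Background correction, normalization and spot filtering are likewise not given. The 2 arrays had deposited medians of -0.02 and -0.04 and ranges of -5.70 to 5.71 and -6.06 to 4.58. No intensities were used, so no filter on dim spots was possible, and precision is limited by the number of arrays.

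Probes were named through the platform annotation (21082 with 1 symbol, 30 with several, 4232 with none), and 20456 symbols were brought up to date by gene ID. Each array was centred on its median, turned to HF4 over HF1 and averaged over the dye swap. Probes of a gene were averaged (1668 genes had more than 1). This gave 22879 features, 18617 with a symbol. No p-value was computed, as 1 pair of extracts leaves no replicate. Genes named were the 12 called genes at each end, up to 4 called members of each of 30 lists, a set of well-known fat, immune and germ cell genes, the middle member of lists without a call and the genes nearest the limit of 1. Others are said to be chosen after their values were seen, or are the remaining members of a list. The comparison, lists and rule were chosen with earlier results of these data known. Alternatives changed the centring, scaling, distribution, arrays, probes, call rule and route of the comparison. Python 3.11.15, numpy 2.4.6, pandas 2.3.3 and matplotlib 3.10.9 were used, and the calculation was tested on simulated data.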

Additional observations from a re-analysis of the deposited data

How the results depend on the processing

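The 1116 positive calls were 700 at a size of 1.5 and 1389 without replicate 1 (HF4 in Cy5) and 1539 without replicate 2. The 593 negative calls were 291 where both arrays had to reach 1, 142 at a size of 1.5 and 980 over single probes, Actb having 305. They were 1484 without replicate 1 and 599 without replicate 2. Of the 593, 364 were also called without replicate 2, 272 through HF0 (40 with a mean of the other sign) and 405 through HF3 (2 called positive). Of the 1116, 998 were also called without replicate 2, 997 through HF0 (22 with a mean of the other sign) and 941 through HF3 (1 called negative). Each of the 30 list medians was computed anew under each alternative. Of these values, 58 moved by more than the spread of their arrays and 210 by less, and 2, of a list with at least 5 calls, turned sign. With these 2, 27 values, from 12 lists, had the other sign, between -0.19 and 0.35. The respiratory chain was at 0.04 through HF0. For lists with at least 5 calls the moves were these. Meiosis genes were at 1.54 to 1.58 on single arrays, 1.85 by least squares over experiment 2, 2.05 through HF0 and 2.08 through HF3. Sperm chromatin was at 3.22 through HF0, acrosome genes at 2.34 through HF0 and 1.96 through HF3, and flagellum genes at 1.01 by least squares, 1.43 through HF0 and 0.75 through HF3. Adipocyte genes were at -0.68 to -0.44 on single arrays and -0.37 through HF0. Erythroid genes were at -1.12 without centring, -1.08 scaled, -1.02 after quantile normalization, -0.99 to -0.98 on single arrays, -0.99 by least squares and -0.77 through HF0. The immediate early list turned sign, with -0.69 to 0.35 on single arrays and 0.0089 through HF0. Rab3b was at 0.0001 through HF0 and 1.13 through HF3, and Epb42 at 0.21 through HF0. The causes were not tested. Of the values of named genes, 818 moved by less than their spread and 106 by more, and 3 of called genes turned sign. The 818 hold all 103 values of each single-array setting. Those were fixed in advance, because either of 2 arrays lies within their SD of the mean, and they say nothing about stability. In all, 15 values, from 9 genes, had the other sign, Rab3b and Epb42 being the called ones. Indirect routes share extracts with the direct arrays. No paired analysis was possible because the 2 arrays are 1 pair of extracts and no test was made.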

Other observations

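Probes with no gene symbol added 130 positive and 74 negative calls. The most positive was probe 10212 at 4.32 and 4.80 (4.56 ± 0.24), followed by probe 17308 at 3.33 and 4.88. They stood at 4.73 and 4.41 in HF4 over HF0 and 0.23 and -0.28 in HF1 over HF0. On the negative side probe 18896 stood at -1.79 and -2.24, while probe 4736 had -5.68 on the array with HF4 in Cy5 and -0.20 on the other.

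Germ cell genes outside the lists, chosen after their values were seen, lay as far out as those in them. Gk2, a glycerol kinase gene of the testis, stood at 3.92 and 4.83 (4.37 ± 0.46), Dmrtb1, a transcription factor gene of the germ line, at 4.51 and 3.73 (4.12 ± 0.39), and Syce1, a gene of the synaptonemal complex, at 4.30 and 3.79 (4.04 ± 0.26).

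In 484 features the arrays lay so far apart that the SE was at least 1. Bmp8a, a growth factor gene, had -3.85 with HF4 in Cy5 and 4.14 with HF4 in Cy3, and the sperm tail gene Odf4 had 2.33 and -4.04. Single arrays carried the calls of Uts2r (3.56 and 0.14) and Pax4 (0.22 and 3.55), which stood at -0.10 and -0.18 in HF4 over HF0 and at 0.48 and 0.16 in HF1 over HF0. Of 48 called genes with 2 to 9 probes, 44 had probes that all shared a sign.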
